A study of Homo sapiens with 6 samples.

Results

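The 4 imprinted loci, KCNQ1, GNAS, GRB10 and TRAPPC9, held 30 of the 4344 regions in the lists of differentially methylated regions between DNMT3A-overexpressing and control HepG2 cells. A listed region was counted at a locus when it overlapped the RefSeq extent of the gene widened by 725 to 1748 bp on each side. The 30 entries came to 16 of the 3313 distinct regions of the series, of which 7 lay at KCNQ1, 2 at GNAS, 2 at GRB10 and 5 at TRAPPC9. The members were selected on the called difference in methylation level: the loci were taken because regions had been called there, and a region enters a list only when its methylation differed within a pair. Levels and differences are therefore given as a description, with no test.

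HepG2 is an established human hepatocellular carcinoma line. Lentivirus was used to raise DNMT3A, an enzyme that places new methyl groups on DNA, in 3 libraries (genotype label DNMT3A overexpression), and 3 control libraries came from cells given a control lentivirus (genotype label WT). The assay was reduced representation bisulfite sequencing, in which MspI enriches CpG-rich fragments and bisulfite converts unmethylated cytosines. Each deposited list compares the overexpressing and control libraries that share a number, so that calls exist for pairs 1, 2 and 3 and not for the groups. Separate cultures are not stated for the libraries within a group, and the level of DNMT3A itself is not part of the data. Total reads ranged from 33512387 to 39245256 per library and mapped reads from 25764323 to 29924507. The lists give no reads per region, so the depth of each level is unknown and intervals are left out.

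An imprinted gene is expressed mainly from the copy inherited from 1 parent. The copies are told apart by imprinting control regions, stretches of CpG-rich DNA methylated in 1 germline and kept that way afterwards, so that a mixture of both copies reads at an intermediate level. At KCNQ1 the control element is the promoter of the antisense noncoding RNA KCNQ1OT1, which lies inside the gene. At GNAS there are several such elements, among them the one around the alternative first exon A/B, just upstream of the promoter of the stimulatory G protein alpha subunit. At GRB10 the element is a CpG island at an internal promoter, and at TRAPPC9 it is the promoter of PEG13, a noncoding RNA gene inside TRAPPC9. The elements named here carry their methylation on the maternal copy. The levels do not separate the parental copies, and copy numbers of the loci in this aneuploid line were not measured.

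Listed regions overlapped a RefSeq start window, 250 bases before to 50 bases after a transcript start, at GNAS and at GRB10. The sequences are shown because these are the places where the listed regions meet an imprinted promoter, and they are those of RefSeq on GRCh38.p14. Bases inside a listed region are in capitals. The starts are numbered from the lower coordinate upward, and by position start 6 of GNAS is the one that falls at exon A/B. GNAS start 6 is at 58889180 (window chr20:58888930-58889229, plus strand). The start of LOC101927932, a noncoding RNA gene on the opposite strand, is at 58888810 (window chr20:58888761-58889060, minus strand). GRB10 start 3 is at 50782896 (window chr7:50782847-50783146, minus strand).
GNAS start 6: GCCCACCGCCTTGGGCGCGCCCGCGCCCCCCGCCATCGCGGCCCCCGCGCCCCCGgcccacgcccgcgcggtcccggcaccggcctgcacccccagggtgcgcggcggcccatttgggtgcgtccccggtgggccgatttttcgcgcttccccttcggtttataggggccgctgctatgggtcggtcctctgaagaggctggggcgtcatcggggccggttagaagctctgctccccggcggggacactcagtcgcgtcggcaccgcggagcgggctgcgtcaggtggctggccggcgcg
LOC101927932: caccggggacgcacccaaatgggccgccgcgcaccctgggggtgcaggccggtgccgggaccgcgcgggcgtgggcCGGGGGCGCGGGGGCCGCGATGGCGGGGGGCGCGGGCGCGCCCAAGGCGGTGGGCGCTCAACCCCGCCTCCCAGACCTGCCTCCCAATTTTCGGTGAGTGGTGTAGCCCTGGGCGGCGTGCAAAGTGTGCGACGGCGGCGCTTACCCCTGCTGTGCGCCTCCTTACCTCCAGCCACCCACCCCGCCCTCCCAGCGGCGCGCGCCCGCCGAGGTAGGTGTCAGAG
GRB10 start 3: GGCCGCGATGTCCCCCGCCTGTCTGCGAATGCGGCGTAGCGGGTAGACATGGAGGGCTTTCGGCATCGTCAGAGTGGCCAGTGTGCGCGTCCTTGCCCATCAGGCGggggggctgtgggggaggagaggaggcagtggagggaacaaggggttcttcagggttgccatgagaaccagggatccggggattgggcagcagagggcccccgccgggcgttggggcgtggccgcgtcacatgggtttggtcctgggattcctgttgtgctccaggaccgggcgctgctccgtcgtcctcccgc
The first and second of these windows overlap each other on opposite strands. They hold 43 CpG dinucleotides at GNAS start 6, 39 at LOC101927932 and 24 at GRB10 start 3, against a median of 14 over the 35116 windows in the table. The letters TGCCGC, the hexamer bound in its methylated form by ZFP57, a zinc finger protein that maintains imprints, were searched on both strands. They had 0 matches in each of the 3 windows. A match is held by 27.8% of the 237 windows that a listed region overlaps, as these 3 were chosen, and by 16.7% of all windows. Of the 3177 distinct regions on chromosomes with such windows, 6.61% overlap one, and so did 1 of 2 at GNAS and 1 of 2 at GRB10. KCNQ1 and TRAPPC9 have no entry in that table.

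Of the 30 listed regions, 25 (83.3%) were higher and 5 lower in the overexpressing library, beside 81.6% higher and 18.4% lower over all listed regions. By list, 10 of 12 were higher in pair 1, 7 of 10 in pair 2 and 8 of 8 in pair 3, against 82.1%, 81.7% and 81.1% of each whole list. The share of gains over the 4 loci together was thus near that of the series. The loci differed among themselves. At TRAPPC9 11 of 11 entries were higher and at KCNQ1 11 of 12, whereas at GNAS 2 of 4 and at GRB10 1 of 3 were higher. Entries can repeat a region in several pairs. By distinct region, 5 of 5 were higher at TRAPPC9, 6 of 7 at KCNQ1, 1 of 2 at GNAS and 0 of 2 at GRB10. No region of GNAS or GRB10 was listed in pair 3.

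Recurrence also differed between the loci. Of the 16 distinct regions, 4 were listed in all 3 pairs, 2 each at KCNQ1 and TRAPPC9, beside 8.21% of all distinct regions. In at least 2 pairs 10 were listed, beside 21.8% of all distinct regions. Of those 10, 8 were higher each time, 1 was lower each time and 1 went in opposite directions. Over the series, 19% of distinct regions were listed in at least 2 pairs and higher in each, and 1.12% were listed in at least 2 pairs and lower in each. Since the loci were picked with such calls in view, nothing follows from these shares.

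**Figure D1:**
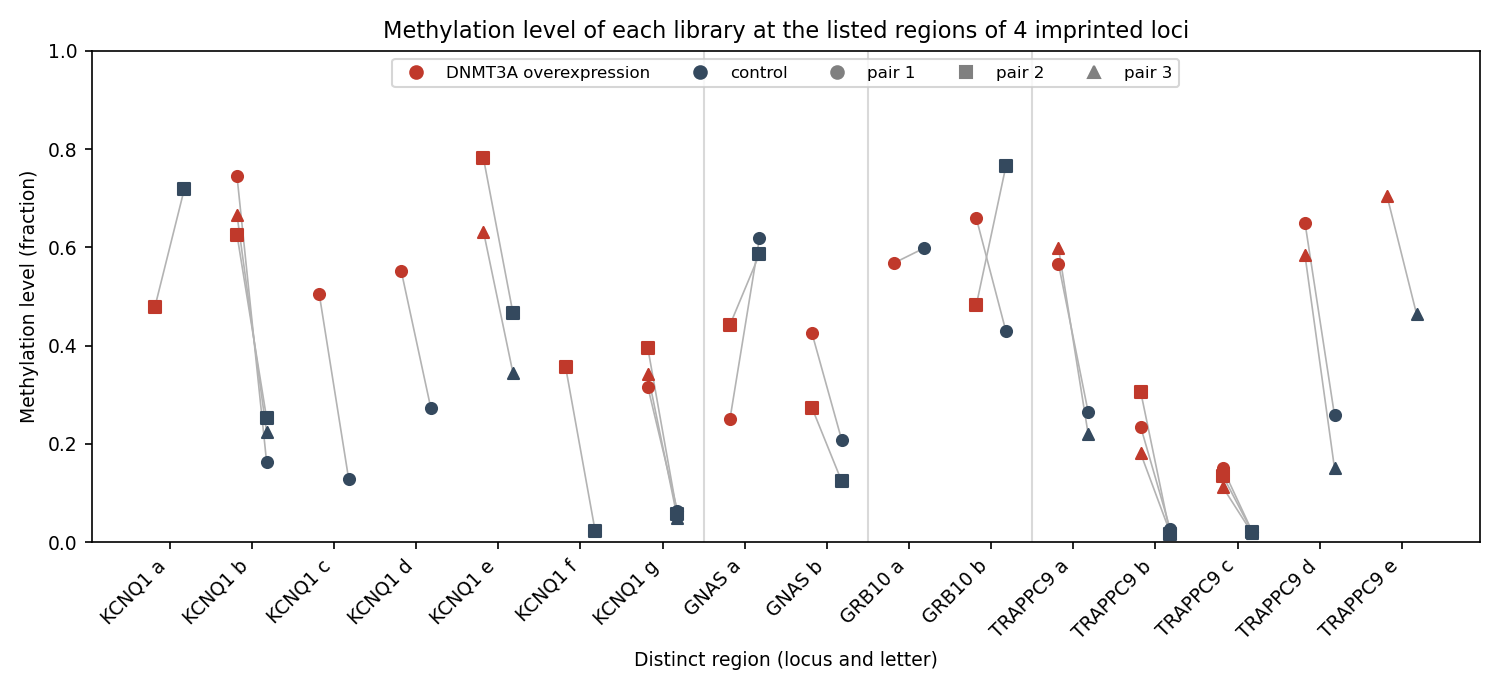
Methylation level (fraction, vertical axis) at each of the 16 distinct regions, lettered within a locus from the lower coordinate upward, in DNMT3A-overexpressing libraries (red, left) and control libraries (dark blue, right). Marker shapes give the pair and grey lines join the libraries of a pair; TRAPPC9 regions were higher in each listed pair, and GRB10 b moved in opposite directions in pairs 1 and 2.

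GNAS, which encodes the alpha subunit of the stimulatory G protein, held both a loss and a gain within a few kilobases. The loss, GNAS a (chr20:58888736-58888984), merges the entries of pairs 1 and 2. The entry of pair 1 (58888751-58888984) contains the start of LOC101927932 and ends 196 bp before GNAS start 6, at exon A/B. The entry of pair 2 (58888736-58888802) ends at a lower coordinate than both of these starts. Its level was 0.250 and 0.442 in overexpressing libraries 1 and 2, against 0.619 and 0.586 in control libraries 1 and 2. Every overexpressing library listed lay below both controls. Of all 723 distinct regions listed in at least 2 pairs, 4.98% showed this separation, 36 in number beside 37 that were lower in each pair, so it largely comes with being called lower each time. The differences were -0.369 in pair 1 and -0.144 in pair 2, with a mean of -0.257 ± 0.159 (SD, n = 2 pairs). The controls lay within 0.0330 of each other, while the overexpressing libraries were 0.192 apart. The listed stretch was 234 bp long in pair 1 and 67 bp in pair 2, so the values of the pairs do not cover the same cytosines.

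The gain, GNAS b (chr20:58890516-58890713), lies 1336 bp beyond start 6, the last GNAS start in the table. The place of GNAS b relative to the promoter of the stimulatory G protein alpha subunit was not determined here. GNAS b stood at 0.424 and 0.273 in overexpressing libraries 1 and 2, against 0.208 and 0.124 in control libraries 1 and 2. The mean difference was 0.182 ± 0.0477 (SD, n = 2 pairs). The listed stretch of GNAS b was 198 bp long in pair 1 and 106 bp in pair 2, so here too the pairs do not cover the same cytosines. Between GNAS a and GNAS b 1531 bp had no listed region. None was listed near the other 4 starts in the table that lie farther upstream. The elements of the neuroendocrine protein NESP55, the large XL alpha-s protein and the antisense RNA GNAS-AS1 lie there. The nearest of those starts is 35755 bp from GNAS a. An absence from the lists shows only that no region was called there.

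GRB10 encodes an adaptor protein that binds the insulin and insulin-like growth factor receptors and restrains growth. Its 2 distinct regions both lay at internal start 3, at 145 and 197 bp from it, and not at the other 4 starts in the table. GRB10 b (chr7:50783041-50783198) stood at 0.659 in overexpressing library 1 and 0.483 in overexpressing library 2, against 0.429 in control library 1 and 0.765 in control library 2. Pair 1 thus listed a gain of 0.230 and pair 2 a loss of -0.283. The controls were 0.336 apart, more than either difference within a pair, and the groups overlapped. The mean difference was -0.0264 ± 0.362 (SD, n = 2 pairs). Of the 723 distinct regions listed in at least 2 pairs, 8.02% went in opposite directions.

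GRB10 a (chr7:50782376-50782699) was listed in pair 1 only, at 0.568 in the overexpressing library and 0.598 in the control. Its difference of -0.0298 was the 2nd smallest in absolute size among the 1483 regions of that list. It held 45 sites over 324 bp. Both libraries stood at an intermediate level here. Over both GRB10 regions and both groups the levels ran from 0.429 to 0.765.

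**Figure D2:**
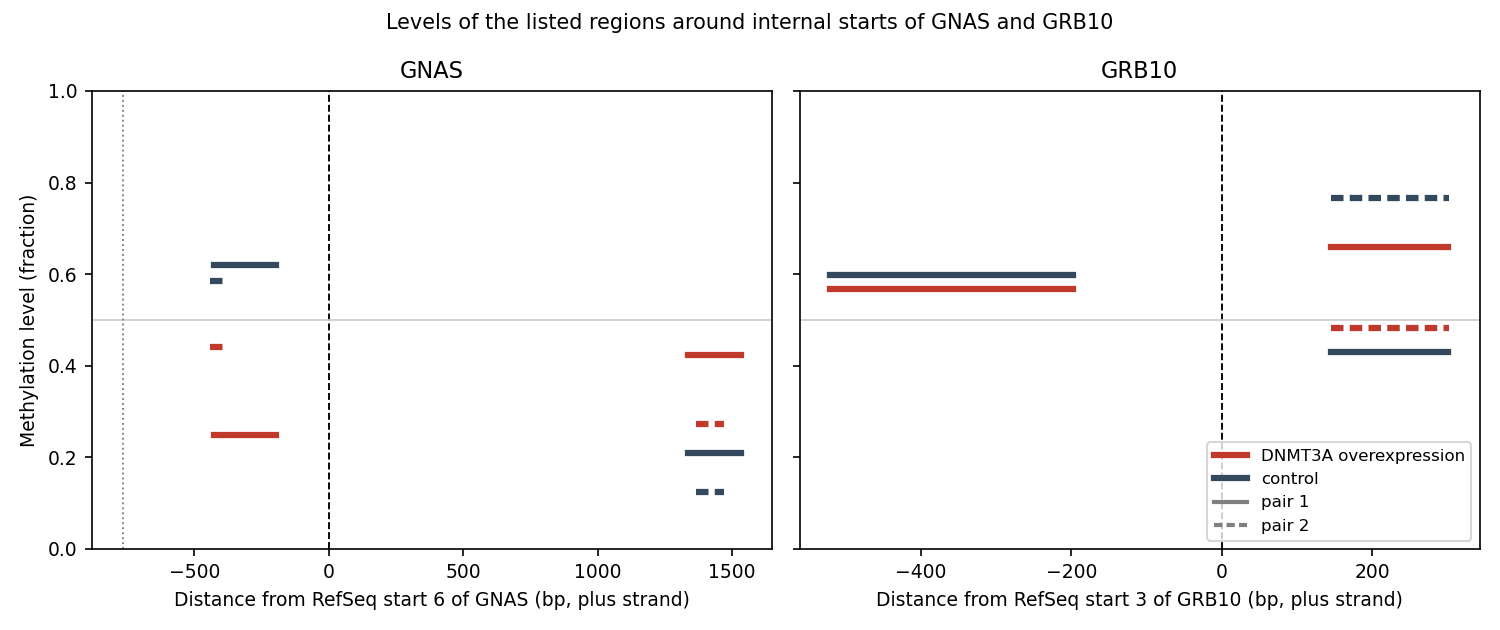
Levels (fraction, vertical axis) of the listed regions of GNAS and GRB10 by distance in bp along the plus strand from start 6 of GNAS and start 3 of GRB10 (dashed lines); each bar spans a listed region in a DNMT3A-overexpressing (red) or control (dark blue) library, solid for pair 1 and broken for pair 2, and the dotted line in the GNAS panel is start 5. At GNAS the overexpressing libraries lie below the controls before the start and above them 1336 bp beyond it, while at GRB10 the order of the groups is opposite in the 2 pairs.

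KCNQ1 encodes the alpha subunit of a voltage-gated potassium channel. Of its 7 distinct regions, 6 lay inside the gene and were higher in each listed pair. None lay at the imprinting control element. The promoter of KCNQ1OT1 is at the upper end of that gene, at 2699994, and the nearest listed region, KCNQ1 e, was 25252 bp away. No region was listed inside the KCNQ1OT1 transcript, which spans chr11:2608328-2699994.

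KCNQ1 b (chr11:2533949-2534018) was listed in all 3 pairs with the same boundaries, 165976 bp from the promoter end of KCNQ1OT1. Its level was 0.744, 0.625 and 0.665 in overexpressing libraries 1, 2 and 3, against 0.163, 0.252 and 0.223 in control libraries 1, 2 and 3. The lowest overexpressing library was far above the highest control. The mean difference was 0.465 ± 0.106 (SD, n = 3 pairs), and it ranked 2 among the 272 regions listed in all 3 pairs. Overexpressing library 1 was the highest and control library 1 the lowest, so pair 1 had the largest difference, 0.581, at percentile 98.6 of its list.

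KCNQ1 e, f and g lay together within 3407 bp, downstream of the KCNQ1OT1 promoter end on the plus strand. KCNQ1 g (chr11:2728439-2728652) stood at 0.316, 0.395 and 0.343 in overexpressing libraries 1, 2 and 3, against 0.0640, 0.0568 and 0.0491 in control libraries 1, 2 and 3. All controls were nearly unmethylated and close together, and the groups did not overlap. The mean difference was 0.295 ± 0.0433 (SD, n = 3 pairs). KCNQ1 e (chr11:2725246-2725377) had 0.781 and 0.632 in overexpressing libraries 2 and 3, against 0.465 and 0.343 in control libraries 2 and 3. It started from a higher level than KCNQ1 g. Its mean difference was 0.302 ± 0.0193 (SD, n = 2 pairs). The listed stretch of KCNQ1 e was 132 bp long in pair 2 and 96 bp in pair 3.

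The other 3 gains in KCNQ1 were each listed in 1 pair. KCNQ1 c, d and f had differences from 0.279 to 0.378, and KCNQ1 f (chr11:2726041-2726205) stood at 0.356 in overexpressing library 2 and 0.0222 in control library 2. The only loss, KCNQ1 a (chr11:2444210-2444276, pair 2 only), stood at 0.478 in overexpressing library 2 and 0.720 in control library 2. It lies 732 bp outside KCNQ1, inside the neighbouring gene TRPM5, which encodes a cation channel of taste cells. It entered through the margin of the window. The nearest listed regions outside that window were 231670 bp below and 40344 bp above it, both gains of 1 pair, with mean differences of 0.236 and 0.340.

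TRAPPC9 encodes a subunit of a tethering complex of membrane transport, TRAPPII. All of its 11 entries were gains. TRAPPC9 b (chr8:139918561-139918711) was listed in all 3 pairs, at 0.235, 0.306 and 0.181 in overexpressing libraries 1, 2 and 3, against 0.0263, 0.0157 and 0.0186 in control libraries 1, 2 and 3. TRAPPC9 c (chr8:139919073-139919233), 361 bp farther on, stood at 0.150, 0.135 and 0.112 in overexpressing libraries 1, 2 and 3, against 0.0207, 0.0198 and 0.0174 in control libraries 1, 2 and 3. Both were almost unmethylated in every control, and neither showed an overlap of the groups. Their mean differences were 0.220 ± 0.0651 and 0.113 ± 0.0175 (SD, n = 3 pairs). The listed stretch of TRAPPC9 c was 161 bp long in pair 1, 137 bp in pair 2 and 54 bp in pair 3. Its values in the 3 pairs thus do not cover the same cytosines. Among the 272 regions listed in all 3 pairs, of any direction, TRAPPC9 c ranked 259 from the highest signed mean difference. The regions ranked below it need not be gains. As at KCNQ1 b and g, every overexpressing library lay above every control, which held for 95.6% of those 272 regions.

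TRAPPC9 a and d were listed in pairs 1 and 3. TRAPPC9 a (chr8:139862808-139862917), which also lies in the noncoding gene LOC107986981, stood at 0.566 and 0.598 in overexpressing libraries 1 and 3, against 0.266 and 0.221 in control libraries 1 and 3. TRAPPC9 d (chr8:140091942-140092043) stood at 0.650 and 0.584 in overexpressing libraries 1 and 3, against 0.258 and 0.150 in control libraries 1 and 3. The mean differences, both gains, were 0.339 ± 0.0547 and 0.413 ± 0.0296 (SD, n = 2 pairs).

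The regions nearest to the imprinted transcript of this locus were TRAPPC9 d, 2851 bp from the lower end of PEG13, and TRAPPC9 e inside it. TRAPPC9 e (chr8:140097870-140098048) was listed in pair 3 only, at 0.704 in overexpressing library 3 and 0.463 in control library 3. It lies 2487 bp from the upper end of PEG13. Its place relative to the methylated promoter element of PEG13 was not determined here. The control level was intermediate, unlike those of TRAPPC9 b and c.

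**Figure D3:**
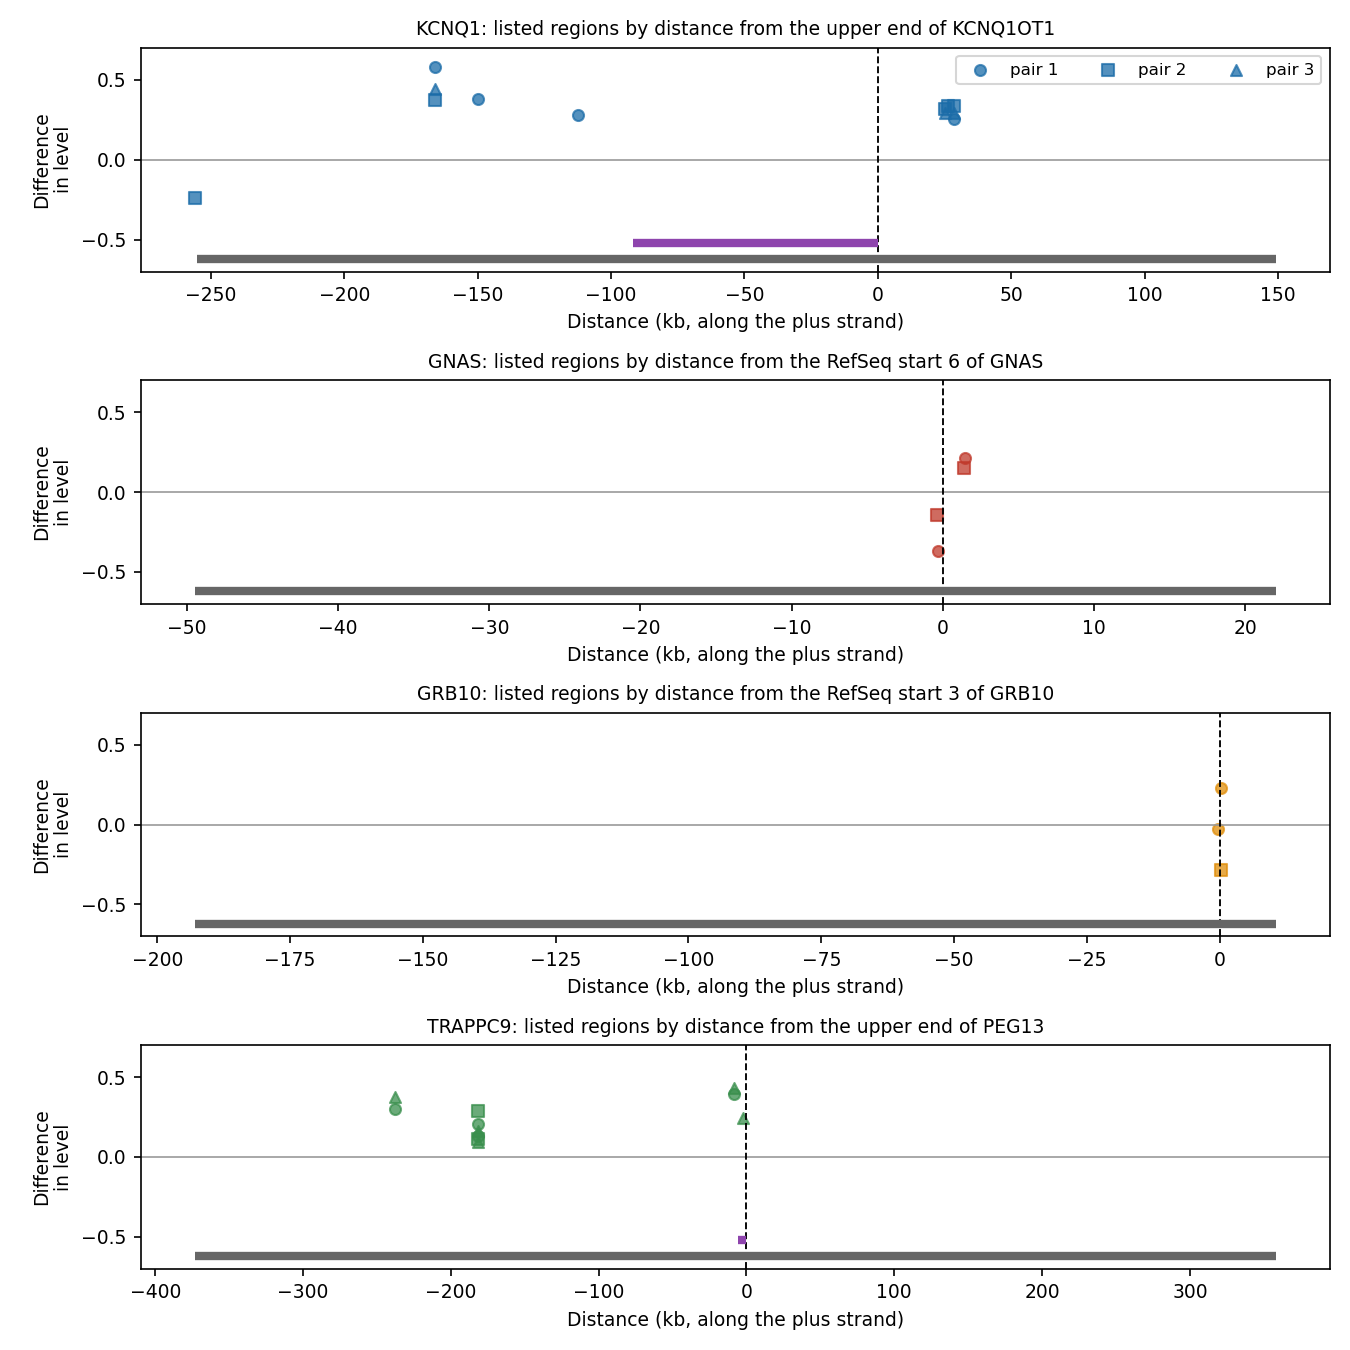
Difference in level (overexpressing minus control library, vertical axis) of the listed regions by distance in kb along the plus strand from the dashed line, which is the upper end of KCNQ1OT1, start 6 of GNAS, start 3 of GRB10 or the upper end of PEG13. Grey bars are the gene extents and purple bars KCNQ1OT1 and PEG13; the regions of GNAS and GRB10 cluster at the dashed line. The nearest region at TRAPPC9 is 2487 bp from it and the nearest at KCNQ1 25252 bp.

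The regions also differed in what the difference does not set directly. The deposited number of CpG sites had a median of 28.5 at GNAS and 33 at GRB10, against 12 at KCNQ1, 15 at TRAPPC9 and 12 over all listed regions. Sites per 100 bp had medians of 22.6 at GNAS and 20.4 at GRB10, against 11.1 at KCNQ1, 11.7 at TRAPPC9 and 10.98 over all listed regions. These medians are over listed entries, 4 at GNAS and 3 at GRB10, which repeat only 2 distinct regions at each. At KCNQ1 12 entries came from 7 distinct regions and at TRAPPC9 11 from 5. KCNQ1 f and g were sparse, with 4.85 and 5.16 to 5.61 sites per 100 bp.

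At these loci the control levels of the 25 gains and 5 losses did not overlap, whereas over all lists they did. A range widens with the number of regions, and the control level is part of the difference that chose them. Nothing follows from this contrast with the far larger lists. The 25 gains had a median level of 0.505 in the overexpressing library and 0.150 in the control, beside 0.512 and 0.195 over the 3546 gains of all lists. The 5 losses had 0.478 in the overexpressing library and 0.619 in the control, beside 0.247 and 0.583 over 798 losses. At the 4 loci the lowest control level of a loss was 0.586 and the highest of a gain 0.465, while over all lists losses went down to 0.0414 and gains up to 0.877. All 5 losses lay at GNAS a, GRB10 a, GRB10 b and in TRPM5.

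**Figure D4:**
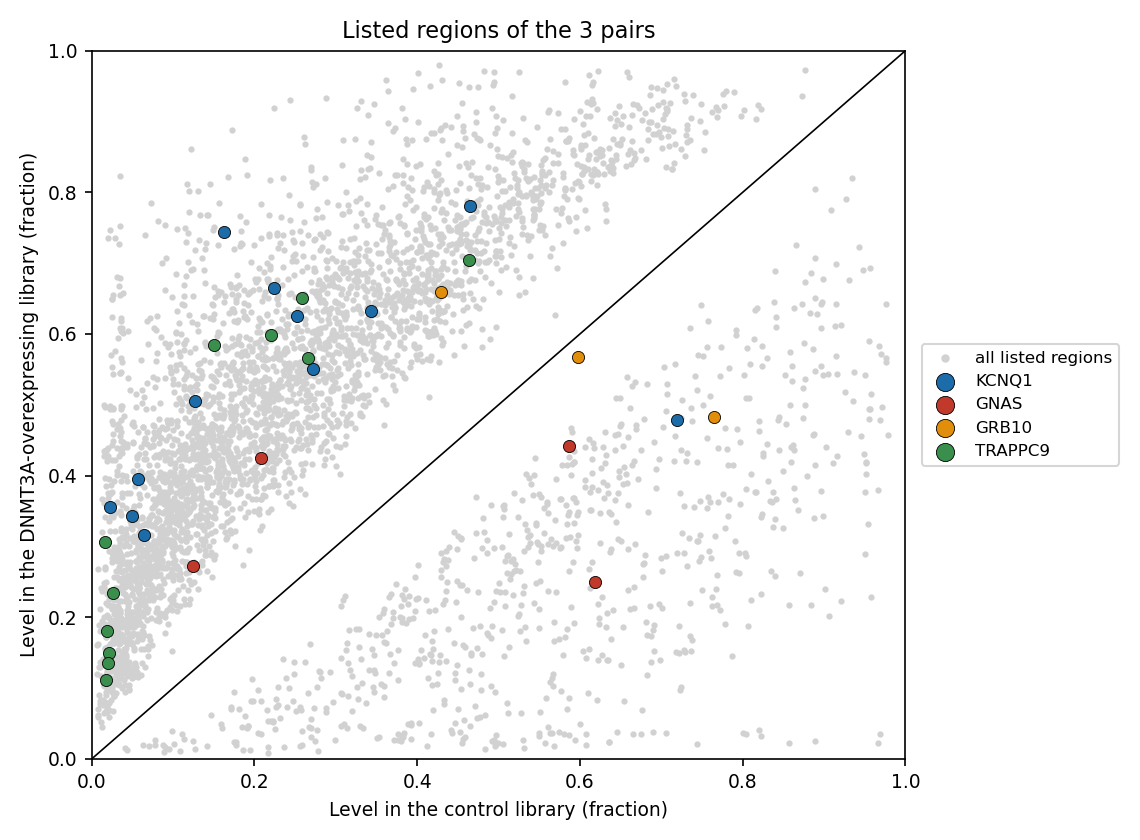
Level in the DNMT3A-overexpressing library (fraction, vertical axis) against that in the control library (fraction, horizontal axis) for all 4344 listed regions (grey) and the 30 at the 4 loci (coloured by locus); the line marks equal levels. The TRAPPC9 points and all but 1 of the KCNQ1 points lie above the line, and the GRB10 point next to it is GRB10 a.

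Other imprinted genes were read from a list of 82 symbols, 80 genes in the RefSeq table once 4 older symbols were matched by synonym. Outside the 4 loci, 11 of 73 listed genes had a region within 1 kb, beside 6.14% of all 38401 protein-coding and long noncoding RNA genes. In at least 2 pairs it was 0 of 73, beside 1.65%. Genes were not matched for length or CpG content. The gene list was chosen with earlier results of these data known, so nothing follows from these shares. Of the 11 genes, 5 had gains only, 5 losses only and 1 both, and some share a region. Over all genes with a region, 2356 in number, 1722 had gains only, 479 losses only and 155 both. The difference between these splits was not tested. The 10 distinct regions of the 11 imprinted genes, 5 gains and 5 losses, were each listed in 1 pair.

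A few of these genes are known for imprinted methylation at their promoters. PLAGL1, a zinc finger growth regulator, shares with the noncoding RNA gene HYMAI a region of 58 sites (chr6:144008296-144008510, 37 bp from a PLAGL1 start), which stood at 0.219 in overexpressing library 3 and 0.388 in control library 3. L3MBTL1, a chromatin reader gene, had 0.208 in overexpressing library 3 and 0.370 in control library 3, 314 bp from its start (chr20:43514032-43514127). At PEG3, a paternally expressed zinc finger gene that overlaps ZIM2, a region of 17 sites (chr19:56838454-56838714) stood at 0.875 in overexpressing library 2 and 0.324 in control library 2. Among the starts with a window, the nearest to it was that of LOC124904779, 25448 bp away. The place of this region relative to the PEG3 promoter was not determined here. The regions of PLAGL1, L3MBTL1 and PEG3 thus moved in different directions, each in 1 pair.

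Beside the KCNQ1 window, in the same imprinted domain, PHLDA2, a growth-restraining gene expressed from the maternal copy, had a gain and a loss in pair 2. The gain stood at 0.410 in overexpressing library 2 and 0.214 in control library 2, and the loss at 0.402 in overexpressing library 2 and 0.952 in control library 2. The transporter gene listed as SLC67A1 (older symbol SLC22A18) and its antisense partner SLC67A1-AS shared a gain of pair 1, and the antisense gene had another gain in pair 3. The remaining genes were DLK1, a Notch-family ligand gene, with a gain of 0.379, and ZNF331 and IGF2R with losses of -0.730 and -0.432. The regions of ZNF331 and IGF2R held 4 sites each, the fewest that any listed region had.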

How the data were processed

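Reduced representation bisulfite sequencing libraries of HepG2 cells, 3 overexpressing DNMT3A and 3 controls, were grouped and numbered from the labels. Per the file headers, the authors' lists give for each region the mean methylation level of both libraries as a fraction from 0 to 1, the deposited count of CpG sites, the length in bp, and a signed difference and an area score. The deposited difference equals the overexpressing minus the control level within 1e-15 in every region. The area score was not used further. Mapping rate and MspI cutting efficiency are percent values in the authors' deposited mapping summary. Per the submitters' processing notes the genome build was hg38. Aligner, region caller and its cut-offs were not given in the sources used here. Listed differences tend to exceed those of a fresh measurement, because calls and levels come from the same reads.

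Regions of different lists that overlapped by at least 1 bp were merged into distinct regions with pandas 2.3.3 in Python 3.11.15. The merging was tried on simulated regions of equal length, well apart and with 1 direction each. Overlaps of unlike length and opposite directions were not covered by that trial. A pair's value is the mean weighted by CpG sites. Gene extents, starts and sequences are those of RefSeq on GRCh38.p14, the same build. Every distinct region listed in at least 2 pairs was named, as were those nearest to the imprinted transcripts or with the largest change of their locus, and GRB10 a and KCNQ1 c, d and f were added after their values were seen. The loci and the imprinted gene list were chosen with earlier results of these data known. No statistical test was run. Alternatives were the overlap, the window, the size of the difference, the number of sites, the gene distance, the weighting and leaving out each pair.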

Additional observations from a re-analysis of the deposited data

How the results depend on the processing

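No paired analysis was possible because no result comes from a test: the differences given are already taken within pairs, and the regions were selected on them. At the 4 loci 25 listed regions were higher and 5 lower. With absolute differences of at least 0.2 the lower ones numbered 3 and the distinct regions listed in all 3 pairs 2, down from 4, since TRAPPC9 b fell below that size in pair 3 and TRAPPC9 c in every pair. Leaving out each pair in turn gave 15 to 18 higher and 2 to 5 lower regions, 13 to 15 distinct regions in place of 16, and 5 to 6 found in more than 1 pair with 1 direction in place of 9. The higher ones numbered 15 without pair 1, and the lower ones 3 without pair 1 and 2 without pair 2. These counts shrink because fewer lists enter. The number of imprinted genes with a region, 16 with all pairs, ranged from 10 to 15, lowest without pair 2. The mean difference of GRB10 b was -0.0264 with both pairs, 0.230 without pair 2 and -0.283 without pair 1. That of GNAS a was -0.144 without pair 1 and -0.369 without pair 2. Apart from GRB10 b, the distinct regions at these loci listed in at least 2 pairs had the same sign in each pair, so leaving out a pair could not turn them. The unweighted mean changed nothing, since each pair has 1 entry per distinct region here. Without the margin around the genes, with reciprocal overlap of at least 0.5 of both regions, with at least 8 sites or with other gene distances, the counts stayed within 1.5 times those reported. No count of regions in all 3 pairs exists with a pair left out. The lists give no depth, so thinly and well covered regions cannot be told apart.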

Other observations

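The deposited number of CpG sites appeared to count the cytosines of both strands. At GNAS a in pair 2 the list gave 22 sites in 67 bp, where the 42 bases with known sequence hold 7 CpG dinucleotides and the other 25 bases could bring 1 strand to at most 20. Over all lists, 144 of 158 overlapping regions whose boundaries differed by 1 bp between pairs also differed by 1 site, and neighbouring bases can both be sites only on opposite strands. In pair 1 the same place had 30 listed sites, where 224 of its 234 bases hold 28 dinucleotides, so fewer cytosines were listed there than both strands offer. That count stays within the 33 that 1 strand could hold. The 32 and 33 sites of GRB10 b in pairs 1 and 2 also stay within their limit of 38. These entries therefore do not tell the 2 ways of counting apart.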
